A study of Homo sapiens with 4 samples.

Results

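The 41 genes described here encode parts of the lysosome and of the autophagy machinery. They were listed by name and read, each, from the brightest Affymetrix probe set that names that gene alone, of 19775 genes read in this way. Of the 41, 40 had such a probe set, and GLB1, the lysosomal beta-galactosidase, had none of its own. A gene was taken as measured in a cell line at a signal of at least 100, in arbitrary units, on 1 array of the line, which left 34 genes in MDA-MB-231 and 35 genes in T-47D cells. TFEB, MCOLN1, ULK1 and ATG16L1 stayed below this signal on all 4 arrays, ATG7 and GABARAPL1 on the MDA-MB-231 arrays, and MITF on the T-47D arrays.

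The transcriptome data were 4 U133 Plus 2.0 arrays of total RNA from 2 human breast cancer cell lines, each condition on a single array. MDA-MB-231 cells, from a triple negative carcinoma, and T-47D cells, from a ductal carcinoma that expresses the estrogen receptor, were kept for 24 h with 100 μM JPH203, an inhibitor of the amino acid transporter LAT1, or with Captisol, the vehicle, given at the same concentration. No array was repeated, so each ratio below stands without an error or a p-value, and none of the differences was tested. In RNA from whole cultures, fewer cells expressing a gene and less RNA in each cell cannot be told apart.

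Lysosomes degrade proteins, lipids and glycans with acid hydrolases, which work in a lumen that the vacuolar proton pump keeps acidic. Autophagy encloses cytoplasm in a double membrane and delivers it to lysosomes, so that its building blocks return to the cell. The kinase mTORC1, active on the lysosomal membrane when amino acids are plentiful, restrains both the autophagy kinase ULK1 and the MiT/TFE transcription factors TFEB, TFE3 and MITF, which bind the CLEAR element in promoters of many lysosomal genes. ATF4 and CHOP, transcription factors of the amino acid response, are known to raise several autophagy genes.

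The arrays matched their labels. The T-47D control exceeded the MDA-MB-231 control 2-fold or more for all 13 luminal markers with a probe set, and for 12 once the arrays were put on the poly-A spike-in transcripts described next. Of 12 mesenchymal markers, 10 were higher by 2-fold or more in the MDA-MB-231 control, with or without that scaling, and the others were below 100 throughout. Markers of leukocytes, which are rich in lysosomal transcripts, were below 100 on every array for all 7 with a probe set, the brightest reading being 36.9, and their summed signal lay between 52.7 and 70.8. The spike-in signal was 1.56 times that of the control with JPH203 in T-47D cells, 0.927 times in MDA-MB-231 cells, and 3.25 times higher in the T-47D than in the MDA-MB-231 control. Scaling to it lowers every log2 ratio of JPH203 over control by 0.64 in T-47D cells, raises it by 0.11 in MDA-MB-231 cells, and raises that of MDA-MB-231 over T-47D by 1.70. The amount of spike-in added to each sample is not given in the sources used here, so scaled values are an alternative reading only. The ACTB signal at the 3-prime end over that at the 5-prime end, which follows RNA integrity, was 1.39 in the T-47D control and 1.72 with JPH203, against 1.45 and 1.44 in MDA-MB-231 cells. The part of these readings in the results below was not tested, except where a scaled value is given.

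Promoter sequences from RefSeq (GRCh38.p14), from 250 bases before to 50 after each annotated start, were found for 32 of the 41 genes. The core of the CLEAR element, TCACGTGA, was searched on both strands. It lay in the promoters of 5 of the 32 genes (15.6%), against 1.18% of 27305 genes in the table and 2.63% of the 7213 with a signal of at least 100 on 1 array. The E-box CACGTG, which the core contains, was in 6 of the 32 (18.8%), CTSD being the added gene, against 13.6% of the 7213. The element TGATGNAA, to which ATF4 binds with C/EBP partners, was in none of the 32 windows and in 2.73% of the 7213. A match describes letters in a window and not binding. The 7 occurrences of the core, in the 5 genes that hold it, are shown with the core in capitals. They have 10 bases on either side, 5′ to 3′ on the strand of the gene.
CTSA: gcgccggagtTCACGTGActcgtacaca
LAMP1, first: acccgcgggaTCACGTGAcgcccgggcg
LAMP1, second: gcggcgcagcTCACGTGAcaagcgctgc
MCOLN1, first: ccagaggcggTCACGTGAggggctctgg
MCOLN1, second: ggctaccgggTCACGTGAccgaggcaca
ATP6V0D1: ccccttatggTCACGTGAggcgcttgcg
ATG3: gagtctagtgTCACGTGAggccccggtg

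The CTSA window is at chr20:45891299-45891326 on the plus strand, with the core beginning 26 bases before the start. The LAMP1 windows are at chr13:113297200-113297227 and chr13:113297227-113297254 on the plus strand, beginning 29 and 2 bases before the start, so that the second core spans it. Those of MCOLN1 are at chr19:7522572-7522599 and chr19:7522599-7522626 on the plus strand, 42 and 15 bases before the start. That of ATP6V0D1 is at chr16:67481200-67481227 on the minus strand, 60 bases before the start, and that of ATG3 is at chr3:112561941-112561968 on the minus strand, 4 bases after the first transcribed base. The 250 bases before the start of LAMP1 (chr13:113296989-113297238, plus strand), which hold 5 E-boxes, and of NPC1 (chr18:23586507-23586756, minus strand), which hold 0, are shown for 2 membrane proteins whose signals are compared below, with CACGTG in capitals.
LAMP1: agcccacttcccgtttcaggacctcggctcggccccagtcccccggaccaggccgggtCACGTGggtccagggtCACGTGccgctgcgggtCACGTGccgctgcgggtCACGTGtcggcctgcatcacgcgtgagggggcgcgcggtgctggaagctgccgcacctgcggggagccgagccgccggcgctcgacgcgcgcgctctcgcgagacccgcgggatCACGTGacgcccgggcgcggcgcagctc
NPC1: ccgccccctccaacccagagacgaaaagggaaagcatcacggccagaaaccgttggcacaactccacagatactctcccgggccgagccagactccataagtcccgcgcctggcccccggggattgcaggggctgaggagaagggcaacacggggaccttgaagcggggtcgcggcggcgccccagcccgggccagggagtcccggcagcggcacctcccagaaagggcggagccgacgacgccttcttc

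None of the lysosome and autophagy genes was called at 2-fold with JPH203 in either line, where a call needed both arrays of the line to reach 100. In MDA-MB-231 cells this was 0 of 34 genes, when 0.103% of 6777 genes were called. In T-47D cells it was 0 of 33 genes, when 4.64% of 6416 were called. The largest difference of a measured gene, that of NPC1, could not be called because the gene was below the minimum with JPH203. With the minimum put in for that reading, NPC1 was at least 2.19-fold lower. Of the genes that reached 100 on both arrays, none lay outside the central 95% of ratios of its line either, on its brightest probe set. This span ran from 0.778 to 1.32 in MDA-MB-231 and from 0.503 to 1.97 in T-47D cells. Further probe sets of CTSC (0.63) and MAP1LC3B (1.35) did lie outside it in MDA-MB-231 cells. After scaling to the spike-ins, 8 of the 33 genes were at least 2-fold lower in T-47D cells, as were 26.0% of all genes, and 0 were higher, as were 0.296%. Those 8 were CTSA, CTSD, CTSZ, GUSB, SCARB2, ATP6AP1, ATP6V1A and ATP6V1B2, none of them of the autophagy group.

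In MDA-MB-231 cells 22 of the 34 genes were brighter with JPH203, when 48.8% of all measured genes did, and the median log2 ratio was 0.04, against -0.0048 over all genes. In T-47D cells 15 of 35 were higher, when 46.3% of all genes were, and the median was -0.09 against -0.05. By functional group, the median log2 ratio in T-47D cells was 0.38 for the autophagy core, -0.15 for the proton pump, -0.24 for the hydrolases and luminal proteins and -0.54 for the membrane proteins. The groups overlapped, the pump genes running from -0.71 to 0.50 and the hydrolases from -0.71 to 0.32, and differences between groups were not tested. After scaling to the spike-ins, which takes the same amount from every gene, the median over all measured genes was -0.70. Those of the groups were then -0.26, -0.79, -0.89 and -1.18, so that of the autophagy core turned below 0. With the mean of all probe sets they were 0.40, -0.53, -0.32 and -0.50, the pump then being the lowest. In MDA-MB-231 cells the same groups had medians of 0.03, 0.03, 0.10 and -0.05.

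**Figure D1:**
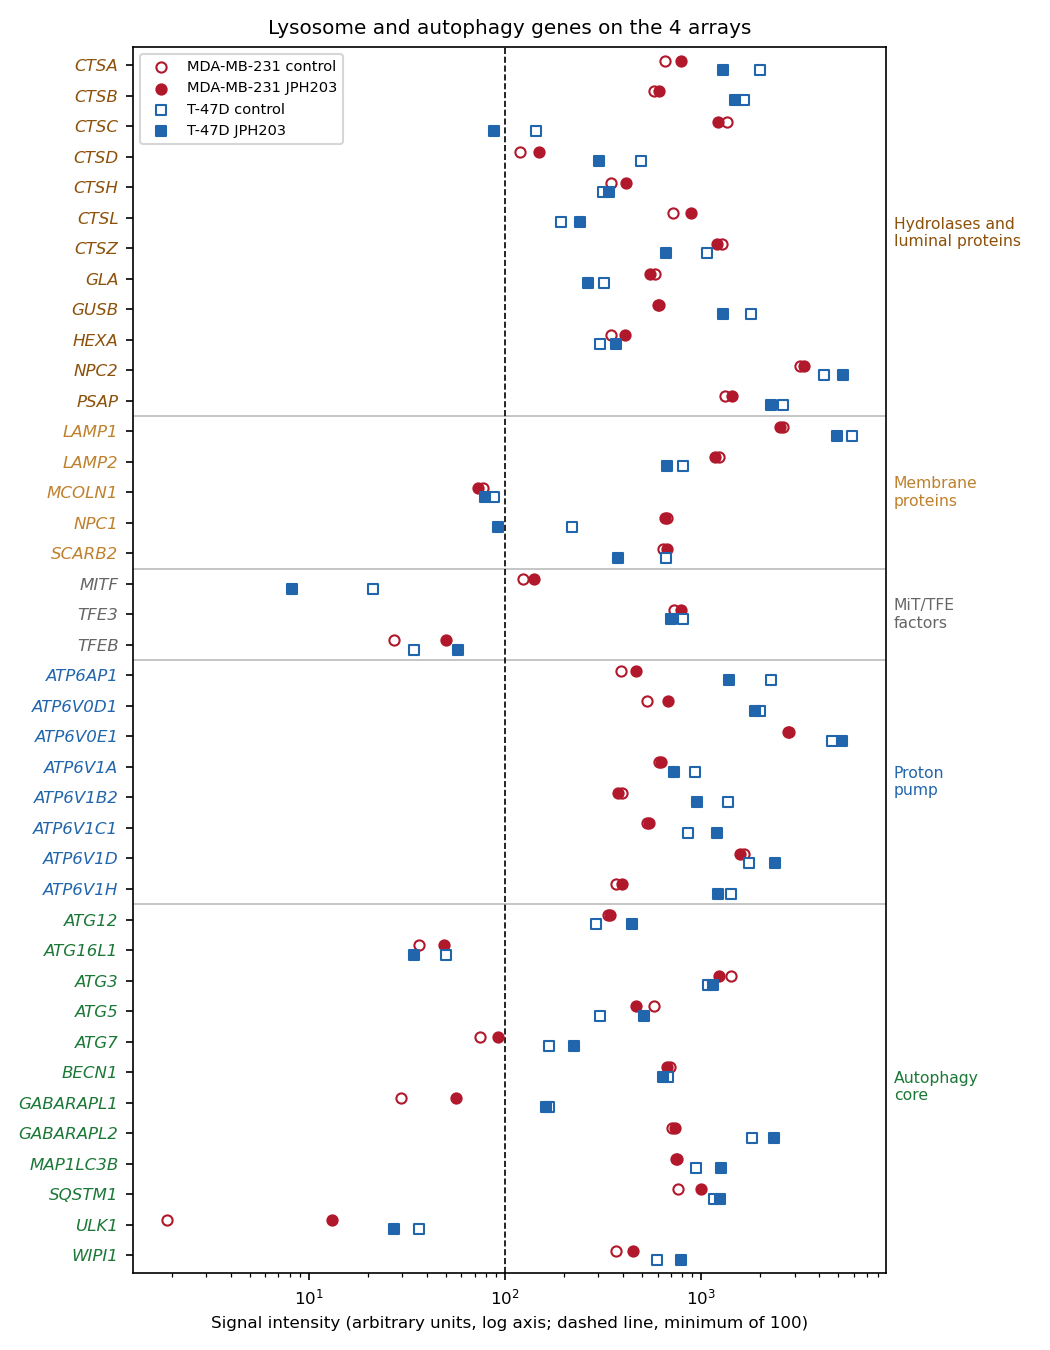
Signal intensity on a log axis (x axis) of the 40 genes with a probe set of their own (y axis, by functional group) on each of the 4 arrays. Controls are open and JPH203 filled, MDA-MB-231 cells are circles and T-47D cells squares, and a dashed line stands at the minimum of 100, below which TFEB, MCOLN1, ULK1 and ATG16L1 lie on all arrays.

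Among the hydrolases and other luminal proteins, all 12 with a probe set were measured in both lines. Pairs of signals are given with the control first and JPH203 second. In T-47D cells 8 of the 12 had a lower signal with JPH203. After scaling to the spike-ins 12 of 12 did, when the median log2 ratio over all measured genes was -0.70. CTSA, the protective protein that also acts as a carboxypeptidase, had signals of 2007 in the T-47D control and 1295 with JPH203, and of 656 and 789 in MDA-MB-231 cells. Its ratio was 0.645 in T-47D and 1.20 in MDA-MB-231 cells, so the lines went opposite ways. CTSD, the aspartic protease cathepsin D, went from 494 to 303 in T-47D cells and from 119.6 to 149 in MDA-MB-231 cells, with ratios of 0.614 and 1.24. CTSZ, a carboxypeptidase, had 1078 and 664.5 on the T-47D arrays, a ratio of 0.617, and 1286 and 1207.5 in MDA-MB-231 cells, a ratio of 0.939. These 3 were the hydrolases past 1.5-fold on the T-47D arrays, a threshold that 13.6% of all genes passed downwards there. Over all groups 7 of 33 genes passed it, when 25.2% of genes did.

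CTSC, the dipeptidyl peptidase that activates granule proteases, had 144 and 88.0 on the T-47D arrays, the second below the minimum. In MDA-MB-231 cells it had 1360.5 and 1220.4, a ratio of 0.897. Its other probe sets above 100 there had 1252 and 789, a ratio of 0.63, and 1267 and 1099, a ratio of 0.867. GUSB, beta-glucuronidase, had 1799 and 1289 on the T-47D arrays, a ratio of 0.716, and 603 and 607 in MDA-MB-231 cells. The hydrolases that were higher with JPH203 in T-47D cells were CTSL, CTSH and HEXA, with the luminal cholesterol carrier NPC2, and their ratios ran from 1.06 to 1.25. CTSL, the endopeptidase cathepsin L, had 193 and 241 there and 722 and 886 in MDA-MB-231 cells, so that its ratios of 1.25 and 1.23 were alike. NPC2 had 4249 and 5307 in T-47D cells and 3189.8 and 3343 in MDA-MB-231 cells, with ratios of 1.25 and 1.05. The remaining luminal genes were CTSB, PSAP, the precursor of the saposins, and GLA, alpha-galactosidase A, with ratios of 0.820 to 0.898 in T-47D cells. In MDA-MB-231 cells the 12 genes had ratios from 0.897 to 1.24, and 9 of them were higher with JPH203.

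All 4 measured membrane proteins were lower with JPH203 in T-47D cells, under each scaling tried. NPC1, which carries cholesterol out of lysosomes together with NPC2, had signals of 219 in the T-47D control and 92.4 with JPH203. Taking the minimum of 100 in place of the dim reading, NPC1 was at least 2.19-fold lower. In MDA-MB-231 cells NPC1 had 674.5 and 653, a ratio of 0.969. Its other probe sets were at most 15.6 on every array and give no second reading. SCARB2, the receptor that brings glucocerebrosidase to lysosomes, had 664 and 378.5 on the T-47D arrays, a ratio of 0.570, and 640 and 673 in MDA-MB-231 cells, a ratio of 1.05. A second SCARB2 probe set had 226 and 128 on the T-47D arrays, a ratio of 0.568. LAMP1, an abundant glycoprotein of the lysosomal membrane, had 5885 and 4957 on the T-47D arrays, a ratio of 0.842, while its 3 other probe sets had ratios from 0.636 to 0.724. LAMP2, its relative in chaperone-mediated autophagy, had 808 and 669.6 on the T-47D arrays, a ratio of 0.829. In MDA-MB-231 cells the ratios of LAMP1 and LAMP2 were 0.962 and 0.954. MCOLN1, the lysosomal calcium channel whose promoter holds the CLEAR core 2 times, was between 73.3 and 87.8 on the arrays and gives no ratio.

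Of the transcription factors, TFE3 was the one measured in both lines. Its signal was 806 in the T-47D control and 704 with JPH203, a ratio of 0.873, and 727 and 789.8 in MDA-MB-231 cells, a ratio of 1.09. MITF, the melanocyte factor of the family, had 124 and 140.3 in MDA-MB-231 cells, a ratio of 1.13, and 21.2 and 8.2 in T-47D cells. TFEB, the main regulator of lysosome formation, had 27.3 and 50.1 in MDA-MB-231 and 34.3 and 57.5 in T-47D cells. The TFEB readings with JPH203 were above the controls in both lines but lie under the minimum of 100, so no size is read from them. These factors are controlled by where the protein lies in the cell, which an RNA level does not show.

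All 8 proton pump genes of the list were above the minimum on every array, and they divided in T-47D cells. Of 14 further pump genes listed as context, 7 were measured in each line. ATP6AP1, an accessory subunit needed for assembly of the pump, had 2273.5 in the T-47D control and, at a ratio of 0.613, 1393 with JPH203. In MDA-MB-231 cells it had 392 and 465, a ratio of 1.19. ATP6V1B2, a subunit of the ATP-hydrolysing ring, had 1373 and 949 on the T-47D arrays, a ratio of 0.691, and ATP6V1A, its partner in that ring, had 931 and 725, a ratio of 0.779. In the other direction, ATP6V1C1, which joins the ring to the stator, had 856 and 1207 on the T-47D arrays, a ratio of 1.41. Its other probe sets above the minimum went both ways, with ratios of 1.33 and 0.696. ATP6V1D, of the central rotor, had 1758 and 2388, a ratio of 1.36. On their brightest probe sets, ATP6V1C1 and ATP6V1D were lower than their controls once scaled to the spike-ins, as were all 8 pump genes. The median log2 ratio over all measured genes was then -0.70. ATP6V0E1, ATP6V0D1 and ATP6V1H had ratios between 0.859 and 1.12 in T-47D cells. In MDA-MB-231 cells ATP6V0D1, of the membrane sector, had the largest ratio, 1.29, with signals of 528 and 682, and the other pump genes lay between 0.946 and 1.19.

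Of the 10 autophagy core genes measured in T-47D cells, 8 were higher with JPH203, but 1 of 10 after scaling to the spike-ins. The other autophagy genes listed as context, described last, did not share this direction, with 10 of 29 higher and a median log2 ratio of -0.19. ATG5, which is joined to ATG12 in the complex that lipidates LC3, had 305 in the T-47D control and, at a ratio of 1.67, 509.5 with JPH203. In MDA-MB-231 cells ATG5 had 578 and 464, a ratio of 0.803 and the lowest there among the brightest probe sets of the measured genes. ATG12 itself had 293 and 445 on the T-47D arrays, a ratio of 1.52, and 337 and 345 in MDA-MB-231 cells, a ratio of 1.02. ATG5 and ATG12 were the genes more than 1.5-fold higher in T-47D cells, which 11.6% of all genes were. A second probe set gave ratios of 1.61 for ATG5 and 1.96 for ATG12.

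MAP1LC3B, the LC3 protein that coats the autophagosome, had 941 and 1263.5 on the T-47D arrays, a ratio of 1.34, and 743 and 757 in MDA-MB-231 cells, a ratio of 1.02. Its second probe set had a ratio of 1.37 in T-47D cells and of 1.35 in MDA-MB-231 cells, from 306.5 to 413, so in MDA-MB-231 cells its probe sets differed. GABARAPL2, of the same ubiquitin-like family, had 1827 and 2343 on the T-47D arrays, a ratio of 1.28, and 715 and 735 in MDA-MB-231 cells, a ratio of 1.03. WIPI1, which binds phosphoinositide on the forming membrane, had 594 and 788 in T-47D cells and 366.5 and 448 in MDA-MB-231 cells, with ratios of 1.33 and 1.22. ATG7, the enzyme that activates ATG12 and LC3, had 168 and 225 on the T-47D arrays, a ratio of 1.34, but 1.05 on a second probe set. SQSTM1, the cargo receptor p62, had 767 and 998 in MDA-MB-231 cells. Its ratio of 1.30 was the largest there among the brightest probe sets of the measured genes. In T-47D cells it had 1158 and 1254, a ratio of 1.08. ATG3, BECN1 and GABARAPL1 had ratios from 0.940 to 1.06 in T-47D cells. The kinase gene ULK1 was at most 36.4 on all arrays, and ATG16L1, the partner of ATG5 and ATG12, was below the minimum on each.

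**Figure D2:**
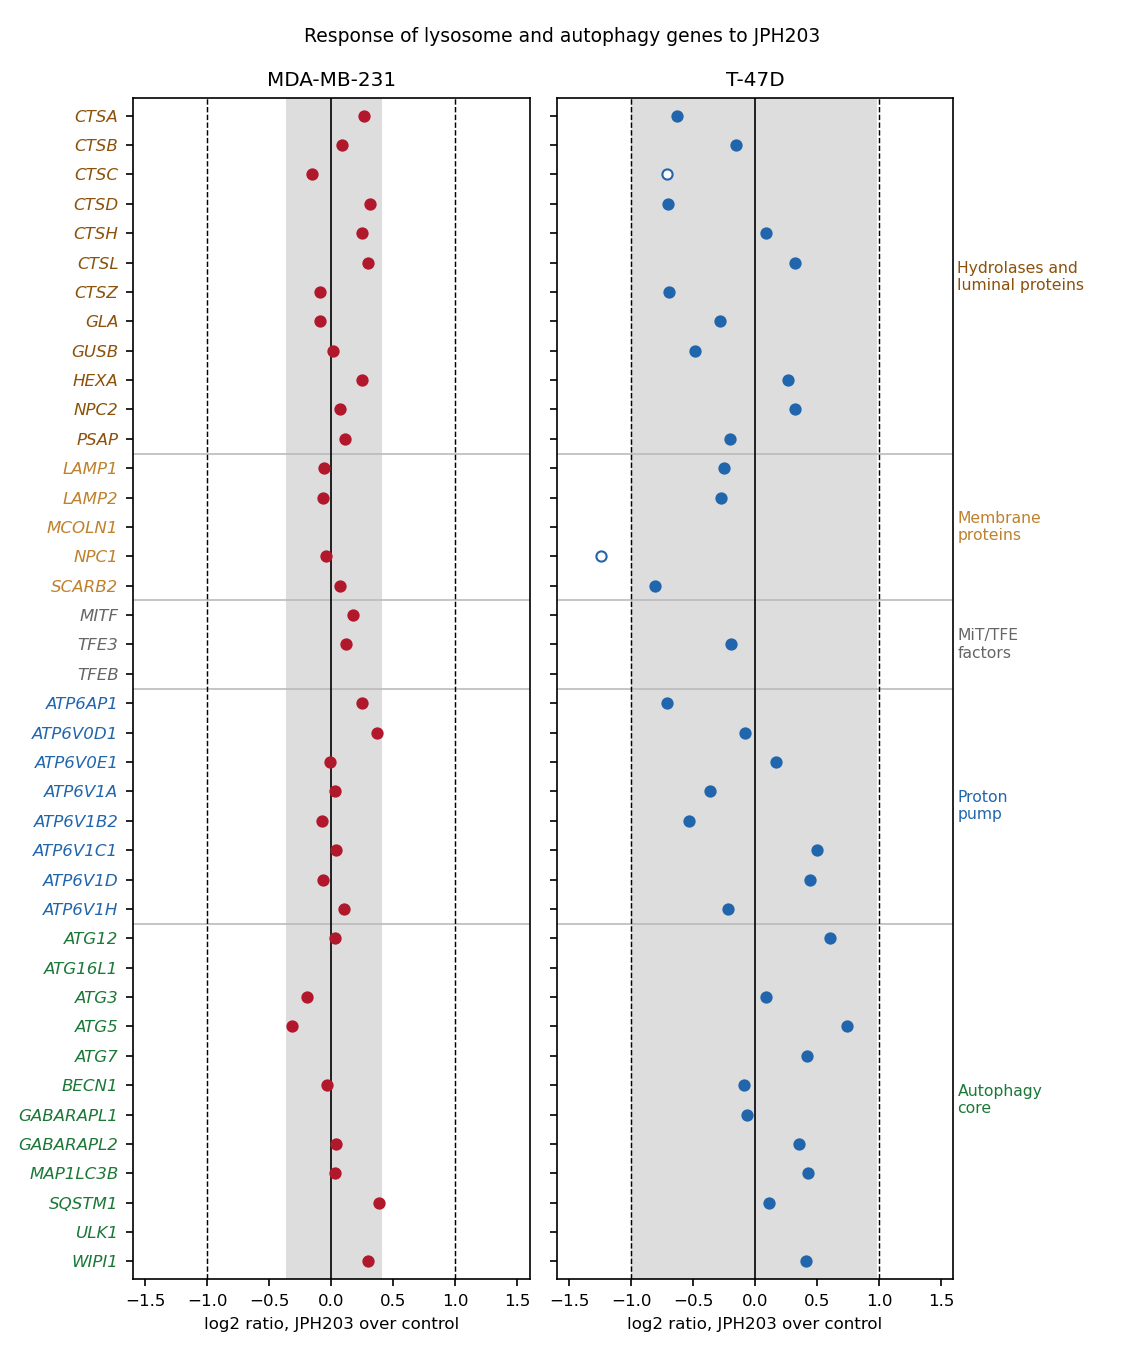
Each gene (y axis, by functional group) is placed at the log2 of its signal with JPH203 over its control signal (x axis) in MDA-MB-231 (left) and T-47D cells (right), 1 array per condition. Open points have 1 of their signals below 100, rows with no point were not measured, dashed lines mark 2-fold and grey spans hold the central 95% of all genes of the line; in T-47D cells 8 of 10 autophagy genes lie right of 0 and all 4 membrane proteins left of it, but scaling to the spike-ins would place 1 of the 10 right of 0.

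The list of 12 autophagy genes reported elsewhere to be raised by ATF4 or CHOP overlaps the genes above. In T-47D cells 9 of the 11 measured were higher with JPH203, when 46.3% of all genes were, and 0 were called, when 4.64% were. The median log2 ratio was 0.37, or -0.27 with 2 of 11 higher after scaling to the spike-ins, and the exceptions before scaling were BECN1 and NBR1, a cargo receptor, at 0.760. In MDA-MB-231 cells 6 of 9 were higher, with a median of 0.03. The autophagy core as a whole had a median genomic length of 21.8 kb, the hydrolases 17.6 kb, the membrane proteins 59.5 kb and the pump genes 47.4 kb, against 28.0 kb for all genes measured in T-47D cells. Once the trend of the ratio on length was removed, the medians in T-47D cells were 0.31, -0.27, -0.43 and 0.03, that of the pump having turned above 0.

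Different probe sets of a gene allow a check within an array, though not a replicate. In T-47D cells 16 genes had 2 or more probe sets that reached 100 on both arrays. All probe sets were lower with JPH203 for 6 of these, CTSB, PSAP, LAMP1, LAMP2, SCARB2 and ATP6V1A, and all were higher for 6 others, ATP6V1D, ATG5, ATG7, ATG12, MAP1LC3B and WIPI1. They split for ATP6V0E1, ATP6V1C1, BECN1 and GABARAPL1. In ATP6V1C1 the third probe set had 320 and 223, a ratio of 0.696, against 1.41 on the brightest. Most of these are _s_at or _x_at probe sets, which can also match related transcripts.

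**Figure D3:**
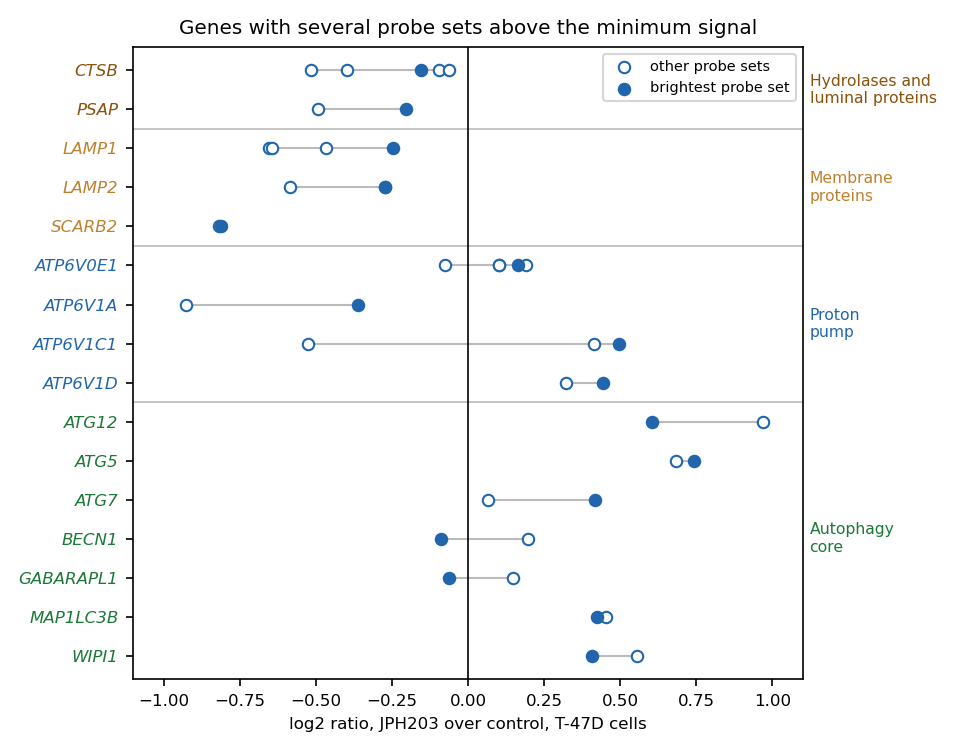
Log2 ratio of JPH203 over control in T-47D cells (x axis) for every probe set that reached 100 on both arrays, in the 16 genes that have several (y axis), with filled points for the brightest probe set and grey lines for the range within a gene. As deposited, CTSB and PSAP of the hydrolase group and the membrane proteins shown lie left of 0, and most autophagy genes shown lie right of it. Scaling to the spike-ins moves every point 0.64 to the left. The other hydrolases are not shown, and of all 12 measured 8 were lower and 4 higher.

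The 2 control arrays differed more from each other than either JPH203 array did from its control. Over all genes with 100 on both arrays compared, the standard deviation of the log2 ratio was 1.08 between the controls. With JPH203 over control it was 0.513 in T-47D and 0.197 in MDA-MB-231 cells. Of 36 genes that reached 100 on 1 control array, 16 differed at least 2-fold, when 47.8% of all genes did, and 25 differed at least 1.5-fold, when 67.4% did. Of the 16, 12 (33.3% of the 36) were higher in T-47D cells, as were 24.3% of 8294 genes, and 4 (11.1%) in MDA-MB-231 cells, as were 23.5%. After scaling to the spike-ins these became 0 and 22 genes, when 6.76% and 69.2% of all genes were called, so the direction rests on the scaling. MITF, GABARAPL1 and ATG7 were measured through the brighter line alone. With at least 100 required on both control arrays, 10 of 33 genes were higher in T-47D and 3 in MDA-MB-231 cells, when 16.1% and 16.3% of all genes were. The median log2 ratio of MDA-MB-231 over T-47D was -0.50, against 0.0011 over all genes measured. CTSC and ATP6AP1 lay outside the central 95% of these ratios, which 5.03% of genes did.

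Each of the 8 pump genes had a higher signal in the T-47D control, with a median log2 ratio of -1.26, though after scaling to the spike-ins 4 of the 8 were higher in MDA-MB-231 cells. ATP6AP1 was 5.81-fold higher in T-47D cells, on the signals given above. ATP6V1H, a regulatory subunit, had 1415 in T-47D and 369.9 in MDA-MB-231 cells, a 3.82-fold difference. ATP6V0D1 had 1993 against 528, a 3.77-fold difference, and ATP6V1B2 had 1373 against 397, a 3.46-fold difference. These 4 remained higher in T-47D cells after that scaling, with none then past 2-fold. ATP6V1D had 1758 against 1649 and was the nearest to equal of the pump genes.

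The cathepsins divided between the lines. CTSD was 4.13-fold, CTSA 3.06-fold, GUSB 2.98-fold and CTSB 2.88-fold higher in the T-47D control, CTSB with signals of 1659.8 against 575. After scaling to the spike-ins CTSD alone of these stayed higher in T-47D cells. CTSC was 9.45-fold higher in the MDA-MB-231 control, with 1360.5 against 144, and its other probe sets above 100 in MDA-MB-231 cells had 1267 and 1252 there against 65.7 and 26.6 in T-47D cells. CTSL was 3.74-fold higher in MDA-MB-231 cells, with 722 against 193. Both kept this direction under every scaling tried.

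Membrane proteins divided too. LAMP1 was 2.25-fold higher in the T-47D control, 5885 against 2617, a direction that turned after scaling to the spike-ins, while LAMP2 was 1.52-fold higher in MDA-MB-231 cells, 1231 against 808. A second LAMP2 probe set was level, with 863 against 860.4, and another had a ratio of 1.22. The last had 265.8 against 17.7, the T-47D reading being below the minimum. NPC1 was 3.08-fold higher in MDA-MB-231 cells, 674.5 against 219. SCARB2 had 640 against 664, a ratio of 0.964, and was nearly level as deposited. MITF had 124 in MDA-MB-231 against 21.2 in T-47D cells and was thus at least 1.24-fold higher in the former, while TFE3 had 727 and 806.

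Of the autophagy genes, GABARAPL2 was 2.56-fold higher in the T-47D control, 1827 against 715. GABARAPL1 had 168 in T-47D and 29.5 in MDA-MB-231 cells, at least 1.68-fold higher, and ATG7 had 168 and 74.5, the same bound. GABARAPL2 and ATG7 were higher in MDA-MB-231 cells after scaling to the spike-ins. BECN1, the scaffold of the autophagy lipid kinase, had 692 in MDA-MB-231 against 677 in T-47D cells, and ATG5, at 1.90-fold, was the gene of the group furthest toward MDA-MB-231 cells.

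**Figure D4:**
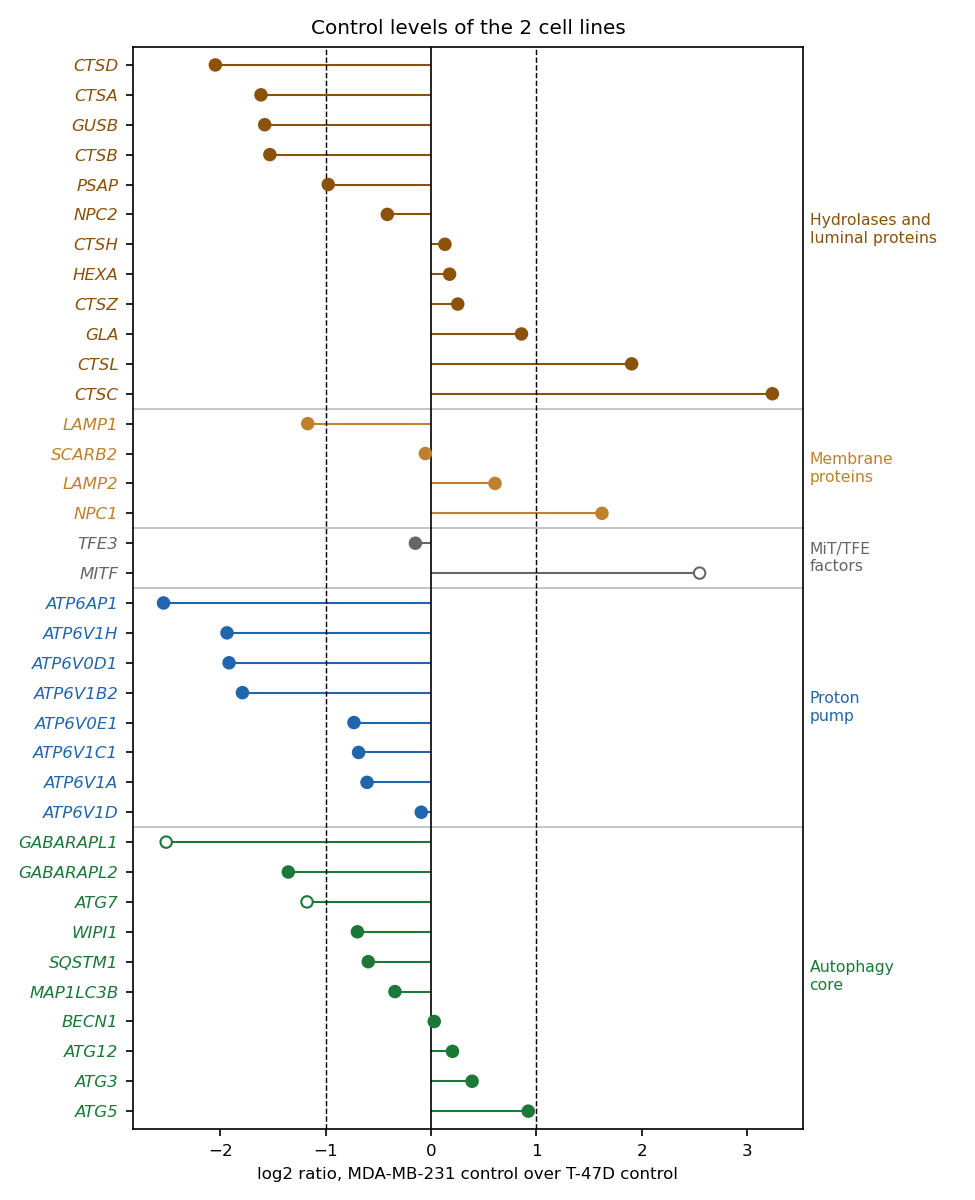
Log2 ratio of the MDA-MB-231 control over the T-47D control (x axis) for the 36 measured genes (y axis, by functional group and ratio), 1 array per line, with dashed lines at 2-fold and open points where 1 signal is below 100. All 8 proton pump genes lie left of 0, toward T-47D cells, and CTSC and MITF lie furthest right; scaling to the spike-ins moves every point 1.70 to the right, which takes 4 of the 8 pump genes past 0.

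A further 103 lysosome and autophagy genes were listed as context, 95 of them with a probe set of their own. Of the 58 that reached 100 on both MDA-MB-231 arrays none was called with JPH203, when 0.103% of all genes were. In T-47D cells 1 of 62 was called, when 4.64% of all genes were. It was IGF2R, the receptor that sorts hydrolases to lysosomes. IGF2R fell from 597 to 206 in T-47D cells, a ratio of 0.345, and its second probe set from 286 to 138, a ratio of 0.484, while in MDA-MB-231 cells it had 542.5 and 627, a ratio of 1.16. Its promoter is among the 8 of 80 in this list that hold the CLEAR core. After scaling to the spike-ins, 23 of the 62 were called lower in T-47D cells, as were 26.0% of all genes.

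The hydrolases of the context list were lower with JPH203 for 19 of 20 genes measured in T-47D cells, with a median log2 ratio of -0.51, and higher for 13 of 16 in MDA-MB-231 cells, with a median of 0.23. Once scaled to the spike-ins these were 20 of 20 lower, with a median of -1.15, and 14 of 16 higher, with a median of 0.34. Over all measured genes the scaled medians were -0.70 in T-47D and 0.11 in MDA-MB-231 cells. The context autophagy genes had a median of -0.19 in T-47D cells, 19 of 29 being lower, and of 0.08 in MDA-MB-231 cells, 18 of 28 being higher. After that scaling 28 of 29 were lower and 25 of 28 higher. In MDA-MB-231 cells FUCA1, alpha-fucosidase, had 507 and 759, a log2 ratio of 0.58, and GALC, galactosylceramidase, had 369 and 518.5, a ratio of 1.41. With SLC17A5, the sialic acid exporter, at 1.42, and FYCO1, an adaptor of autophagosome transport, at 1.35, they lay above the central 95% of ratios of that line, which 5.02% of genes left in either direction. These 4 genes were chosen after their values were seen. In T-47D cells they were lower than their controls, with ratios of 0.723, 0.674, 0.864 and 0.530.

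In the control arrays 31 of 72 measured context genes were at least 2-fold higher in T-47D cells, when 24.3% of all genes were, and 5 in MDA-MB-231 cells, when 23.5% were. With 100 required on both arrays these were 20 and 2 of 57 genes, when 16.1% and 16.3% of all genes were. Scaled to the spike-ins, 2 and 32 of the 72 were called, when 6.76% and 69.2% of all genes were. Among hydrolases CTSS, the immune cell protease cathepsin S, had 123.5 in MDA-MB-231 against 2.6 in T-47D cells. CTSF had 411 in T-47D against 58.4 in MDA-MB-231 cells, MANBA, beta-mannosidase, 312 against 51.3, and GALNS, which degrades keratan sulfate, 478 against 87.0. The last 3 were at least 4.11, 3.12 and 4.78-fold higher in T-47D cells. CLN3, the Batten disease membrane protein, had 834 against 74.3, at least 8.34-fold higher in T-47D cells, and GNPTG and GNPTAB, which make the mannose 6-phosphate tag of hydrolases, had 386 against 93.4 and 431 against 144. CD63, a tetraspanin, was 2.37-fold higher there. The pump genes ATP6V0C, ATP6V1G1 and ATP6V0E2 were 3.02, 2.48 and 2.36-fold higher in T-47D cells, and ATP6V0A1 had 120.6 against 47.3. ATG101, of the ULK1 complex, was 3.01-fold and FYCO1 2.56-fold higher in T-47D cells, while EPG5, a tether of autophagosomes to lysosomes, was 3.54-fold higher in MDA-MB-231 cells. ATG4C, an LC3 protease, had 105 in MDA-MB-231 against 25.8 in T-47D cells.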

How the data were processed

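Total RNA was hybridised to Affymetrix U133 Plus 2.0 arrays, 1 per condition. The authors deposited linear signal intensity values for 54675 probe sets, made with GCOS, per the labels; its version and settings are not given in the sources used here. The trimmed mean of each array (2% left out at either end) was close to 100, as when each array is scaled alone. With 1 array per condition the precision is unknown, and no statistical test was run.

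Probe sets were named from the platform annotation. Of these, 41097 name 1 gene, of which 41043 were matched to RefSeq by gene identifier, with 0 symbols changed. The brightest probe set (highest mean over the 4 arrays) stood for a gene. A JPH203 call was a difference of 2-fold or more where both arrays reached a signal of 100, and for a control call 1 array had to reach it. Members, lists and tests were chosen with earlier results of these data known. All 41 members could be named, with context genes called with JPH203 and up to 4 a group differing most between controls.

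The alternatives were median centring, quantile normalization, loess (span 0.4), poly-A spike-in scaling, removal of the trend on gene length, a pseudocount of 16, minimum signals of 50, 200 and none, fold thresholds of 1.5 and 3, and other ways of picking the probe set. The script that makes the calls was checked on simulated arrays with known fold changes. Python 3.11.15, numpy 2.4.6, pandas 2.3.3, statsmodels 0.14.6 and matplotlib 3.10.9 were used.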

Additional observations from a re-analysis of the deposited data

Results flagged for a closer look

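Of the genes that reached 100 on all 4 arrays, 3 had a log2 ratio of JPH203 over control of at least 0.25 in size in both lines and of opposite sign. The log2 ratio in MDA-MB-231 minus that in T-47D cells was 0.90 for CTSA, 1.02 for CTSD and -1.06 for ATG5. With 1 array per condition, these differences were not tested. After scaling to the spike-ins they were 1.65, 1.77 and -0.30, and the log2 ratio of ATG5 was then 0.099 in T-47D and -0.21 in MDA-MB-231 cells, under 0.25 in both. On a second ATG5 probe set the log2 ratios were 0.69 in T-47D and -0.11 in MDA-MB-231 cells. CTSA and CTSD have 1 probe set each and so no second reading. The MDA-MB-231 signals of CTSD, 119.6 and 149, were close to the minimum of 100.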

How the results depend on the processing

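No count of members called with JPH203 differed from 0 in MDA-MB-231 cells except with no minimum signal, which called 1, ULK1. In T-47D cells 1 member was called after quantile normalization or at a minimum of 50 (NPC1), 1 after removal of the length trend (ATG5), 2 with no minimum, 8 after spike-in scaling and 7 at 1.5-fold. For the control arrays, 25 were called at 1.5-fold and 10 without _x_at and _s_at probe sets, which left 21 measured. The context genes called were 5 with no minimum in MDA-MB-231 cells. In T-47D cells they were 23 after spike-in scaling, 2 at a minimum of 50, 10 with no minimum, 10 at 1.5-fold, 0 at 3-fold and 0 without _x_at and _s_at probe sets. In the controls they were 20 at 3-fold, 22 with the mean of probe sets and 23 without _x_at and _s_at probe sets. The median log2 ratio of the members moved to 0.15 with spike-in scaling and 0.16 with the mean of probe sets in MDA-MB-231 cells. In T-47D cells it moved to -0.73 and -0.27, and to -0.41 without _x_at and _s_at probe sets, and in the controls to 1.20 and -0.90. Spike-in scaling moved the median over all genes alike, to 0.11 in MDA-MB-231 cells, -0.70 in T-47D cells and 1.70 in the controls. Relative to all genes, the members stayed at 0.041, -0.037 and -0.51 under that scaling. Spike-in scaling reversed ATG12 (-0.039) and MAP1LC3B (-0.22) in T-47D cells and, between controls, CTSA (0.089), CTSB (0.17), GUSB (0.12), LAMP1 (0.53), GABARAPL2 (0.35) and ATG7 (0.53). Choosing other probe sets reversed IGF2R (2.17, on a probe set of at most 4.5 in T-47D cells), ATG7 between controls (0.34), and, with the mean of probe sets, FUCA1 (-0.18) and NPC1 between controls (-1.67), whose added probe sets are below the minimum. The other causes were not tested. No paired analysis was possible because each group has 1 array and the labels give no replicate numbers.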
